A study of Glycine max with 22 samples.

Results

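Untreated leaves of soybean (Glycine max) were compared at day 15 and day 0 of a bud-removal time course. The members are the arrays that the labels place in C15 and C0, 7 of the 22 arrays in all. C0 held 4 arrays of mature leaf from control plants at age 30 days, harvested before any bud was removed from other plants. C15 held 3 arrays of mature leaf from control plants at age 45 days, which had grown on for 15 days with all their buds. The plants stood in growth chambers with 16 h days. Total RNA was labelled with biotin and hybridised to the Affymetrix Soybean GeneChip, on which a probe set is a group of short oligonucleotides read as 1 signal. The comparison addresses what changes in a leaf as the intact plant ages, which in the whole study is the baseline for bud removal. The labels do not give the leaf's position on the plant, the soybean variety or how many plants a sample pooled.

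As a leaf passes from growth to maturity and then to senescence, it stops expanding its cells, gives up photosynthetic protein and exports nitrogen and carbon to growing parts of the plant. Soybean leaves can also hold nitrogen in vegetative storage proteins, vacuolar glycoproteins of the paraveinal mesophyll and bundle sheath that are known to build up when the plant has few growing sinks. The glyoxylate cycle, best known from germinating oilseeds and also found in senescing leaves, turns the acetyl units released from fatty acids into organic acids that can feed sugar synthesis.

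Signals are given as deposited, on a linear scale that the authors had set to a common mean on every array. Over the 7 arrays the median soybean signal lay between 62.9 and 71.8, and between 72.1% and 76.5% of soybean probe sets exceeded a floor. That floor is each array's 95th percentile of the probe sets for an oomycete and a nematode, organisms that the plants were not labelled as carrying. It lay between 14.0 and 16.8 on C0 and between 14.6 and 22.1 on C15, with C15 replicate 1 at the top. A total of 32776 soybean probe sets exceeded it on at least 3 of the 22 arrays and were tested. The number of arrays per group limits the precision of what follows, and in whole leaves fewer cells of a type and less RNA per cell cannot be told apart. Of genes for other tissues with a probe set, 1 of 10 for seed proteins passed the floor filter, and 7 of 13 for root nodules did. Over all soybean probe sets 32776 of 37593 passed. The filter counts all 22 arrays, so these shares do not test the leaf label of the 7.

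The arrays of C0 and C15 did not sort by their labels, and this comes before any gene. C0 replicate 4 had a mean Pearson correlation of 0.841 with the other C0 arrays, 0.876 with C15, 0.873 with the untreated leaves of day 20 (C20) and 0.872 with those of day 30 (C30). Its nearest array was C15 replicate 3, at r = 0.946. C15 replicate 1 had a mean correlation of 0.831 with the other C15 arrays and 0.915 with the leaves after 15 days of bud removal (D15), and its nearest array was D15 replicate 2, at r = 0.927. C0 replicate 3 also correlated slightly more with D15, at 0.905, and with C15, at 0.890, than with the other C0 arrays, at 0.886. Its nearest array was R30 replicate 3, of a regrowth group, at r = 0.916. The remaining C15 arrays, replicates 2 and 3, were closest to C20, at 0.901 and 0.910. C15 replicate 3 also correlated more with C0, at 0.861, than with the other C15 arrays, at 0.846, and its nearest array was C0 replicate 4. Arrays that were kept thus did not all sort by label either. According to the design text the time course was run 3 times, whereas C0 has 4 arrays. The ratio of the 3' to the 5' actin probe set was 8.27 on C0 replicate 4 and 2.34 on C15 replicate 1, against 3.50 to 5.25 on the other 5 arrays. On a second actin control it was 5.32, the lowest of the 7, and 19.8, within the range of the others. Whether the libraries labelled C0 replicate 4 and C15 replicate 1 carry the right labels or differ in RNA quality was not tested. Fold changes of the named genes are therefore given with all 7 arrays and without these 2.

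**Figure D1:**
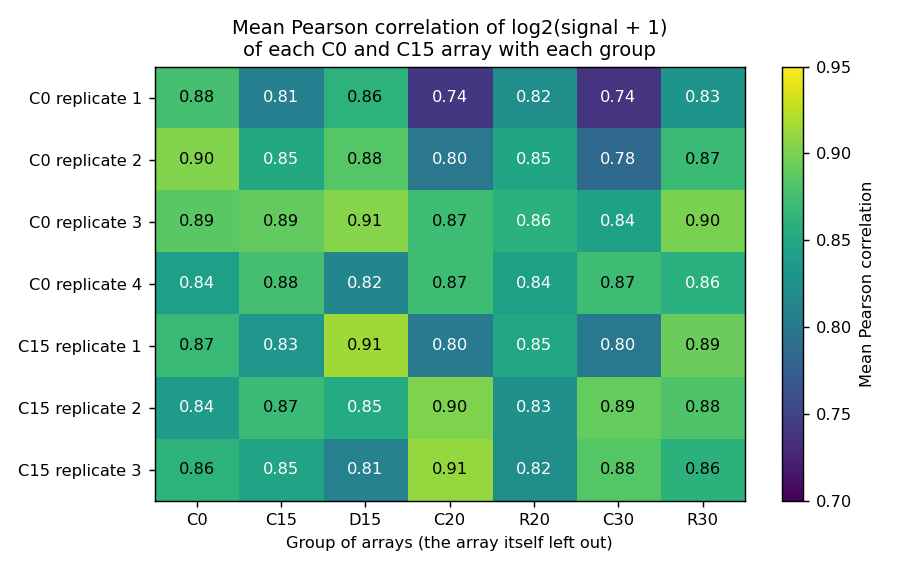
Mean Pearson correlation of log2(signal + 1) over the tested probe sets between each C0 or C15 array (rows) and the arrays of each of the 7 groups (columns), the array itself left out. C0 replicate 4 is closer to C15, at 0.876, than to the other C0 arrays, at 0.841, and C15 replicate 1 is closest to D15, at 0.915.

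With all 7 arrays, no probe set passed the test between C15 and C0. limma called 0 of 32776 probe sets (0.0%) at a Benjamini-Hochberg adjusted p under 0.05, the smallest adjusted p was 0.0700, and 3124 had an unadjusted p under 0.05. All 4 C0 arrays lay above or below all 3 C15 arrays for 1968 probe sets (6.0%). Among 1015 genes with an informative name, 64 (6.31%) had groups that did not overlap, 42 of them lower and 22 higher in C15.

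Without C0 replicate 4 and C15 replicate 1, 1769 probe sets (5.4%) were called, 1117 lower in C15 (3.41%) and 652 higher (1.99%). These 2 arrays were set aside because of their profiles, which were known when they were set aside, so the adjusted p-values of the fit on the other 5 arrays are not independent evidence that day 15 differs from day 0. All 1769 had the same sign with all arrays, and 971 of them had an unadjusted p under 0.05 there. For 159 the full groups did not overlap, beside 1968 of all 32776 tested probe sets (6.0%). The 5 arrays are part of the 7 and the 1769 were picked on them, so this agreement is largely built in and is no support. Leaving out 1 more array gave 514 calls without C0 replicate 1, 826 without C0 replicate 2, 3272 without C0 replicate 3, 628 without C15 replicate 2 and 988 without C15 replicate 3. With the 5 arrays fitted alone, rather than with the spread of all groups, 231 were called. Over the 1015 genes with an informative name, 112 (11.0%) were called, 71 lower (7.0%) and 41 higher (4.04%), and counts over gene lists are to be read against these shares. With all arrays the genes named below had adjusted p-values from 0.317 to 0.927. Calls kept or lost in refits without 1 more array are a description, since the refits reuse the arrays that gave the calls. Without C15 replicate 2 or 3, C15 has 1 array and its spread comes from other groups. With the 5 arrays fitted alone, 41 of the 65 named genes called on them lost the call, AOC3, SEOF, TUBB3 and WRKY41 among them.

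The called probe sets give every array a position along the comparison. With the mean of C0 replicates 1 to 3 set to 0 and the mean of C15 replicates 2 and 3 set to 1, C0 replicate 4 had a median position of 0.782 and was nearer the C15 end for 1430 of the 1769 probe sets (80.8%). C15 replicate 1 had a median position of 0.202 and was nearer the C0 end for 82.5%. These 2 arrays were set aside because they resembled another group, so their positions largely restate that choice. The 3 C20 arrays lay between 0.914 and 1.04 and the 3 C30 arrays between 0.939 and 0.993. Leaves after bud removal lay lower, the D15 arrays between 0.221 and 0.342, and those of the regrowth groups, R20 and R30, between 0.405 and 0.562. Of the arrays that set the ends, C0 replicate 3 was at 0.233. The untreated arrays of the later days were thus near the C15 end, on probe sets whose direction of difference was set without them. However, the kept C15 replicates 2 and 3 were closest to C20, at 0.901 and 0.910. C20 and C30 also entered the spread used for the calls. Their position is therefore partly built in and is no support.

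**Figure D2:**
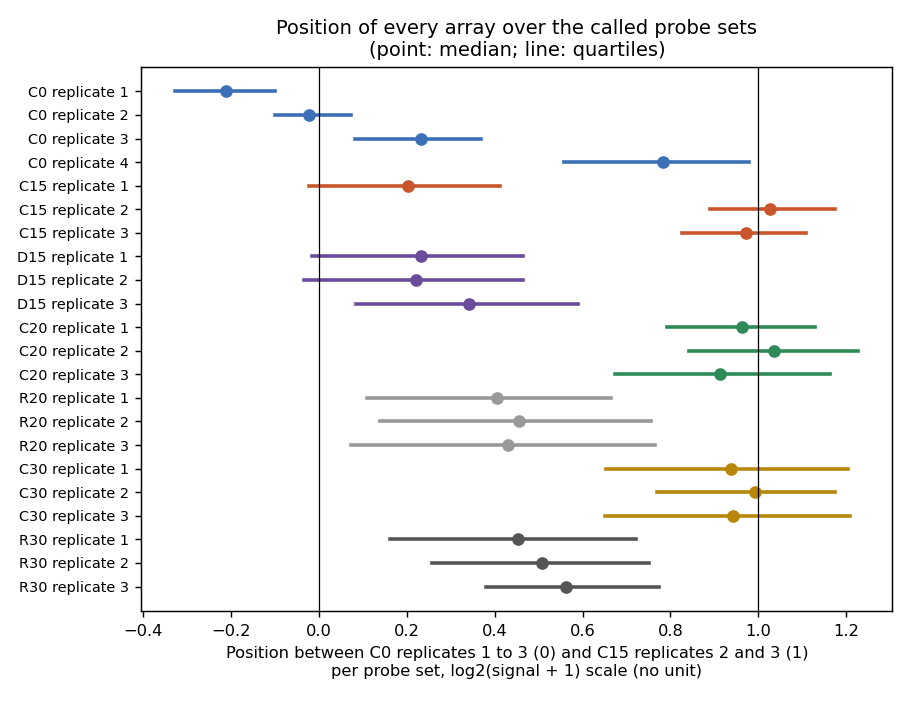
Position of each of the 22 arrays over the 1769 probe sets called without C0 replicate 4 and C15 replicate 1, where 0 is the mean of C0 replicates 1 to 3 and 1 the mean of C15 replicates 2 and 3; points are medians over probe sets and lines run from the lower to the upper quartile. C0 replicate 4 is at 0.782 and C15 replicate 1 at 0.202, the C20 and C30 arrays lie between 0.914 and 1.04, and the D15 arrays between 0.221 and 0.342.

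The named genes whose full groups did not overlap over all 7 arrays, none of them called there, are described first. Their separation does not rest on setting arrays aside, but it does not mark these genes out. Of 1015 genes with an informative name 64 (6.31%) separated, near the 6.0% of all tested probe sets. Whether either share exceeds that of shuffled labels was not tested. Other genes of small p, such as SEOF and NAC6, follow with their families. The smallest adjusted p of limma over all probe sets, 0.0700, was not on a probe set that stands for a gene with an informative name. Among those lower in C15 was PIP2-4, a plasma membrane aquaporin, a water channel. Its signal was 5516, 4305, 3324 and 1781 on C0 replicates 1 to 4 and 1582, 593 and 749 on C15 replicates 1 to 3. The groups did not overlap, although C0 replicate 4 and C15 replicate 1 came close to each other. The log2 fold change with all arrays was -1.95 ± 0.41 (SE, adjusted p = 0.317), and on the 5 arrays it was -2.68 ± 0.39 (adjusted p = 0.000856). PIP2-4 kept its call on the 5 arrays in each of 5 refits that left out 1 more array, and its other probe set was also called lower.

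CYP76O2, a cytochrome P450, read 2833, 1473, 642 and 736 on the C0 arrays and 554, 47.3 and 131 on the C15 arrays. Again the groups did not overlap, and C15 replicate 1 was the highest of its group. Its log2 fold change was -2.96 ± 0.71 with all arrays (adjusted p = 0.344) and -4.12 ± 0.72 on the 5 (adjusted p = 0.00338, lost without C15 replicate 2). In C20 and C30 its signal ran from 3.68 to 22.7, and in D15 from 1192 to 1367. AOC3, an allene oxide cyclase of jasmonate synthesis, read 760, 684, 492 and 469 in C0 and 457, 189 and 162 in C15. Here the lowest C0 array and the highest C15 array were almost level. AOC3 changed by -1.28 ± 0.35 on the log2 scale with all arrays (adjusted p = 0.351) and by -1.85 ± 0.35 on the 5 (adjusted p = 0.00528). PRO2, a profilin that binds actin, ran from 2727 to 4233 in C0 and from 1937 to 2309 in C15, a log2 difference of -0.76 ± 0.20 with all arrays (adjusted p = 0.344) and -0.96 ± 0.22 on the 5 (adjusted p = 0.0154, lost in 4 of the 5 refits). CYP28 ran from 208 to 577 in C0 and from 43.5 to 194 in C15, a log2 difference of -1.87 ± 0.50 with all arrays. It was called on the 5 arrays only, at -2.66 ± 0.51 (adjusted p = 0.00611, lost without C15 replicate 2). CHI3A1, named as a chalcone isomerase, was between 15.6 and 36.6 in C0 and between 1.88 and 8.5 in C15. It was not above the floor on any C15 array, so with all arrays it was at least 1.28-fold lower, and it did not pass the test in either fit (adjusted p = 0.391 with all arrays and 0.164 on the 5).

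Genes higher in C15 without overlap over all 7 arrays included APX1, a cytosolic ascorbate peroxidase that removes hydrogen peroxide. Its signal was 2836, 3487, 2655 and 4482 in C0 and 5367, 5325 and 4993 in C15. The difference was small: C15 replicate 1 was the highest array, and C0 replicate 4 the highest of its group. The log2 fold change was 0.67 ± 0.19 with all arrays (adjusted p = 0.358) and 0.79 ± 0.21 on the 5 (adjusted p = 0.0333, lost in 4 of the 5 refits). The other 4 of its 5 probe sets had negative values that were not called, so the gene's probe sets disagree. WRKY48 and WRKY52, transcription factors of a family known for stress, defence and senescence, were also higher without overlap. WRKY48 read 58.3, 112, 203 and 236 in C0 and 256, 827 and 372 in C15, with a log2 fold change of 1.68 ± 0.47 with all arrays (adjusted p = 0.358) and 2.32 ± 0.51 on the 5 (adjusted p = 0.0139, lost without C0 replicate 1 or C15 replicate 2). C0 replicate 4 and C15 replicate 1 were again next to each other, at 236 and 256. WRKY52 ran from 117 to 329 in C0 and from 372 to 1031 in C15, with a log2 fold change of 1.37 ± 0.41 with all arrays and 1.88 ± 0.45 on the 5 (adjusted p = 0.0229, lost in 3 of the 5 refits). PPCK4, a kinase that activates phosphoenolpyruvate carboxylase, read 13.1, 33.3, 23.7 and 26.7 in C0 and 180, 188 and 42.0 in C15. All C15 arrays were above all C0 arrays, but the difference was called in neither fit (2.24 ± 0.70 with all arrays, adjusted p = 0.376, and 1.98 ± 0.85 on the 5, adjusted p = 0.187). CYP93A3, a cytochrome P450, was not above the floor on any C0 array, at 4.45 to 11.8, and ran from 11.9 to 68.1 in C15. It was at least 2.0-fold higher with all arrays (adjusted p = 0.398) and was not called on the 5 either (adjusted p = 0.202).

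Both vegetative storage protein genes fell to about 1% of their C0 level on the 5 arrays. VSPA read 8459, 7322, 6889 and 113 on C0 replicates 1 to 4 and 3542, 134 and 42.9 on C15 replicates 1 to 3. C0 replicates 1 to 3 were high, C15 replicate 1 was lower by less than an order of magnitude, and C0 replicate 4 sat between the low C15 arrays. With all arrays the log2 fold change was -3.26 ± 1.26 (adjusted p = 0.430), and on the 5 arrays it was -6.62 ± 0.48 (adjusted p = 1.69e-06), a 98.0-fold difference. VSPB read 2408, 2973, 6156 and 22.9 in C0 and 1452, 52.0 and 19.5 in C15. Its pattern over the arrays was that of VSPA, with -3.12 ± 1.41 with all arrays (adjusted p = 0.498) and -6.74 ± 0.59 on the 5 (adjusted p = 7.05e-06). Of the tested probe sets, 6 of 7 for VSPA and 3 of 3 for VSPB were called lower on the 5 arrays. In the untreated leaves of later days the genes stayed at the low end, VSPA between 10.6 and 36.9 and VSPB between 5.32 and 38.8 over C20 and C30. In D15, VSPA was between 7777 and 9701 and VSPB between 10066 and 12944.

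Related wound- and jasmonate-linked genes were mixed. KTI-2 and KTI-3, Kunitz trypsin inhibitors that block digestive proteases of insects, fell on the 5 arrays. KTI-2 read 1073, 934, 944 and 123 in C0 and 1838, 42.6 and 137 in C15, and KTI-3 read 1587, 1390, 834 and 171 in C0 and 1946, 66.3 and 236 in C15. For both genes C15 replicate 1 was the highest of the 7 arrays and C0 replicate 4 the lowest of C0. Their log2 fold changes on the 5 arrays were -3.66 ± 0.68 (adjusted p = 0.00509) and -3.28 ± 0.69 (adjusted p = 0.0107), against -1.39 ± 0.96 and -1.25 ± 0.89 with all arrays (adjusted p = 0.691 and 0.706), and both calls were lost without C15 replicate 2, that of KTI-3 also without C0 replicate 1. BBI-1, a Bowman-Birk inhibitor of trypsin and chymotrypsin, went the other way. It read 30.6, 33.5, 44.5 and 186 in C0 and 105, 1917 and 253 in C15. The difference was 2.75 ± 0.99 with all arrays (adjusted p = 0.408), and the call at 4.25 ± 1.06 on the 5 arrays (adjusted p = 0.0268) was lost without C0 replicate 1, C0 replicate 2 or C15 replicate 2. Thus 1 of 4 tested inhibitors was called higher and 2 lower. Of 8 jasmonate genes AOC3 alone was called, and of 6 lipoxygenases none was. The vegetative lipoxygenase VLXC ran from 3039 to 5895 in C0 and from 1065 to 3916 in C15 (-0.95 ± 0.50 with all arrays, adjusted p = 0.566, and -1.50 ± 0.58 on the 5, adjusted p = 0.137).

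Growth-associated genes were among the largest falls. EXP4, an expansin, a protein that loosens cell walls during cell expansion, had a signal of 4453, 3594, 1051 and 28.7 in C0 and 2835, 11.3 and 13.5 in C15. It was not above the floor on C15 replicates 2 and 3, so on the 5 arrays it was at least 161-fold lower, with a fitted log2 fold change of -7.58 ± 1.29 (adjusted p = 0.00281). With all arrays the value was -3.40 ± 1.78 (adjusted p = 0.565), since C15 replicate 1 was as high as C0 and C0 replicate 4 was near the floor. EXP2, also an expansin, read 490, 454, 90.1 and 35.0 in C0 and 640, 33.4 and 5.73 in C15. C15 replicate 1 was its highest array. The log2 fold change was -1.64 ± 1.08 with all arrays (adjusted p = 0.677), and the fall on the 5 arrays was -4.17 ± 0.78 (adjusted p = 0.00528, lost without C15 replicate 3). Of 11 tested genes for cell wall loosening and lignin these 2 were called lower and none higher, and all 11 had a negative value on the 5 arrays, with a median of -1.55 against 0.09 over all tested probe sets.

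GASA genes encode small cysteine-rich peptides that gibberellin induces in growing tissue. GASA11 read 1869, 911, 264 and 13.5 in C0 and 114, 6.37 and 13.1 in C15. It was below the floor on C0 replicate 4 and on C15 replicates 2 and 3, and on the 5 arrays it was at least 48.1-fold lower (log2 fold change -6.23 ± 0.84, adjusted p = 0.000495), against a value of -3.64 ± 1.19 with all arrays (adjusted p = 0.388). GASA14, at 4262, 1280, 94.2 and 19.1 in C0 and 549, 16.1 and 17.5 in C15, fell by 5.50 ± 1.28 on the log2 scale on the 5 arrays (adjusted p = 0.0185). GASA9, at 5865, 3656, 543 and 450 in C0 and 3342, 25.4 and 189 in C15, fell by 5.00 ± 1.26 (adjusted p = 0.0288). With all arrays GASA14 was at -2.52 ± 1.47 and GASA9 at -2.57 ± 1.32 (adjusted p = 0.623 and 0.557). In all 3 genes C0 replicate 1 was the highest array and the C0 arrays themselves spanned more than an order of magnitude. GASA14 was only just above the floors of C15 replicates 2 and 3, 15.3 and 14.6, so the size of its fall is uncertain. The calls of GASA14 and GASA9 were lost without C0 replicate 1, C0 replicate 2 or C15 replicate 2, and that of GASA14 also without C15 replicate 3. GA2OX6, a gibberellin 2-oxidase, an enzyme type that inactivates gibberellins, rose. Its signal was 27.2, 34, 8.99 and 297 in C0 and 50.9, 437 and 271 in C15, so that C0 replicate 4 was among the high arrays. The log2 fold change was 2.15 ± 0.94 with all arrays (adjusted p = 0.481) and 4.01 ± 0.81 on the 5 (adjusted p = 0.00815, lost without C15 replicate 2). Over the 20 tested gibberellin and GASA genes, 3 were called lower and 1 higher, and 18 had a negative value, with a median of -0.95. Of 5 auxin genes none was called. AUX22, an Aux/IAA repressor of auxin responses, had the largest difference of the list, from 12.7 to 267 in C0 and from 6.53 to 203 in C15 (-0.87 ± 0.97 with all arrays, adjusted p = 0.844, and -2.88 ± 0.85 on the 5, adjusted p = 0.0573).

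**Figure D3:**
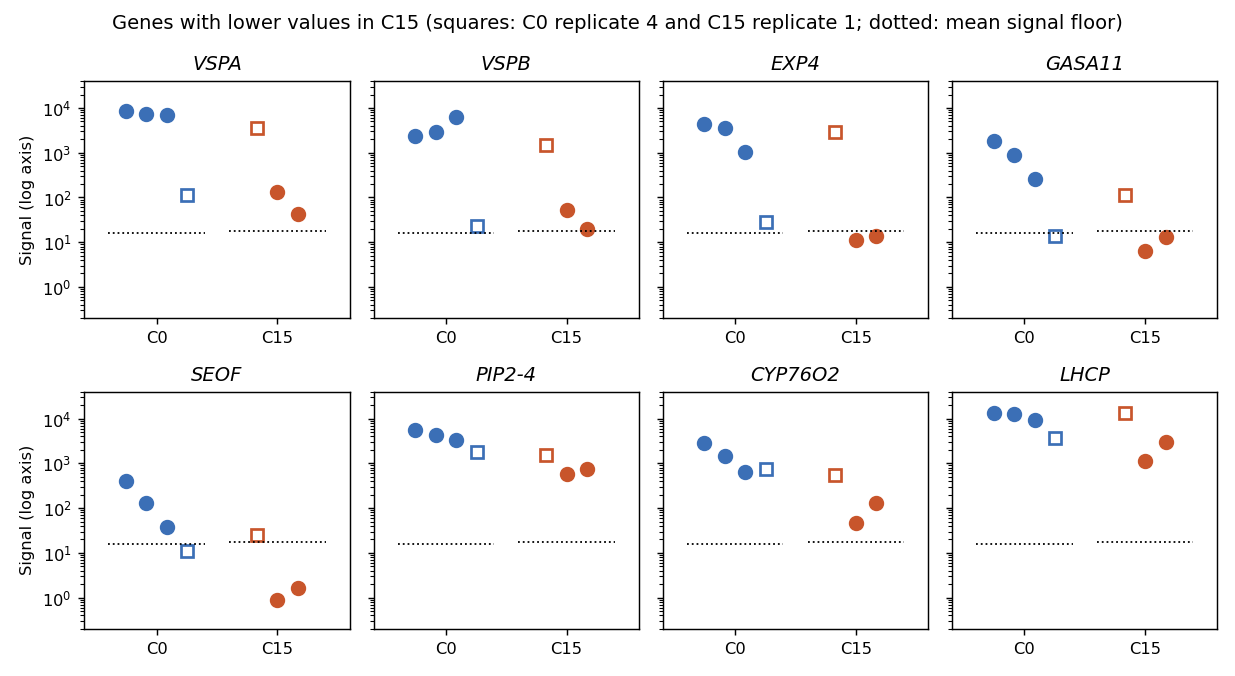
Signal on every C0 and C15 array (log axis) for 8 genes with lower values in C15, 1 point per array; open squares are C0 replicate 4 and C15 replicate 1, and the dotted lines are the mean floors of each group. VSPA, EXP4 and GASA11 are high on C0 replicates 1 to 3 and low on C15 replicates 2 and 3, with the open squares of C0 replicate 4 low and of C15 replicate 1 higher; PIP2-4 and CYP76O2 are the panels in which the full groups do not overlap.

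Genes for water channels and sieve elements and a tubulin gene also fell on the 5 arrays. Of 21 tested aquaporins 4 were called lower on the 5 arrays and none higher, and 18 had a negative value, with a median of -1.12. Beside PIP2-4 these were TIP2-3, a channel of the vacuole membrane, and PIP2-13 and PIP1-1 of the plasma membrane. TIP2-3 read 1845, 467, 28.9 and 21 in C0 and 22.0, 34.2 and 4.63 in C15. C0 replicates 1 and 2 stood far above the other 5 arrays, and the log2 fold change was -3.22 ± 1.13 with all arrays (adjusted p = 0.402). The call on the 5 arrays (-4.39 ± 1.23, adjusted p = 0.0460) was lost in 4 of the 5 refits without 1 more array. PIP2-13 read 4131, 2841, 379 and 167 in C0 and 730, 154 and 205 in C15, with a log2 fold change of -1.70 ± 0.92 with all arrays (adjusted p = 0.585) and -3.20 ± 0.91 on the 5 (adjusted p = 0.0486). PIP1-1 read 1587, 1132, 657 and 365 in C0 and 1379, 293 and 278 in C15, at -0.75 ± 0.50 with all arrays (adjusted p = 0.684) and -1.89 ± 0.39 on the 5 (adjusted p = 0.00880). For both genes C0 replicate 4 was the lowest C0 array and C15 replicate 1 the highest C15 array. Both of these calls were lost without C0 replicate 1, C15 replicate 2 or C15 replicate 3, and that of PIP2-13 also without C0 replicate 2.

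SEOF and SEOA belong to the sieve element occlusion family, whose proteins can plug sieve elements, the conducting cells of the phloem. SEOF read 402, 130, 37.7 and 11.0 in C0 and 24.7, 0.878 and 1.67 in C15. It was below the floor on C15 replicates 2 and 3 and was at least 7.95-fold lower on the 5 arrays (log2 fold change -5.83 ± 0.95, adjusted p = 0.00206), and with all arrays the value was -3.80 ± 1.04 (adjusted p = 0.351). SEOA, at 330, 76.2, 42.9 and 17.0 in C0 and 25.3, 8.57 and 5.35 in C15, was at least 6.50-fold lower on the 5 arrays (adjusted p = 0.0442, lost in 4 of the 5 refits), and at -2.52 ± 0.94 on the log2 scale with all (adjusted p = 0.415). Of 7 tested genes for sieve elements and vascular tissue these 2 were called lower and none higher. The summed signal of the list ran from 1372 to 3297 in C0 and from 693 to 5480 in C15, so the list as a whole did not separate the groups, and whether the share of vein in the sampled leaf differed was not tested. TUBB3, a beta-tubulin, read 1168, 701, 431 and 95.9 in C0 and 280, 147 and 92.0 in C15 and fell by 2.60 ± 0.39 on the log2 scale on the 5 arrays (adjusted p = 0.00127), against a value of -1.46 ± 0.57 with all (adjusted p = 0.432). It was 1 of 5 tested genes for cell division and the cytoskeleton, and no other was called.

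Of 5 light-harvesting genes 1 was called lower, and of 5 genes for Rubisco and carbon fixation none, together a share near the 11.0% over genes with an informative name. LHCP, a chlorophyll-binding protein of the light-harvesting antenna, read 13361, 12442, 9437 and 3695 in C0 and 13519, 1147 and 2967 in C15. C15 replicate 1 matched the highest C0 arrays and C0 replicate 4 was near C15 replicate 3. The difference was -1.28 ± 0.67 with all arrays (adjusted p = 0.561) and -2.65 ± 0.59 on the 5 (adjusted p = 0.0139), and its other probe set was called lower too, but the call was lost without C0 replicate 1 or C15 replicate 2. All 5 light-harvesting genes had negative values on the 5 arrays, with a median of -0.73. RCAALPHA, a Rubisco activase that frees Rubisco of inhibitory sugars, ran from 1912 to 4355 in C0 and from 927 to 2261 in C15 (-1.16 ± 0.35 with all arrays, adjusted p = 0.361, and -1.15 ± 0.43 on the 5, adjusted p = 0.129). INR2, a nitrate reductase, ran from 2419 to 8281 in C0 and from 727 to 2471 in C15. It was called in neither fit (-1.73 ± 0.55 with all arrays, adjusted p = 0.386), and its highest array was C0 replicate 4 and its lowest C15 array replicate 1. Without both of these arrays the difference was -0.98 ± 0.61 (adjusted p = 0.382). None of 11 tested genes for nitrate, ammonium, urea and ureides was called. Of 10 genes for glutamine and asparagine none was called either. GDH1, a glutamate dehydrogenase, came nearest, at 1.33 ± 0.40 on the 5 arrays (adjusted p = 0.0606) and 0.75 ± 0.38 with all, followed by GS1alpha, a cytosolic glutamine synthetase, at 1.59 ± 0.55 (adjusted p = 0.100) and 1.25 ± 0.46.

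The largest rises among named genes on the 5 arrays were the 2 key enzymes of the glyoxylate cycle. ICL1, isocitrate lyase, which splits isocitrate into succinate and glyoxylate, had a signal of 1.14, 0.318, 0.417 and 194 in C0 and 6.84, 5455 and 266 in C15. It lay below the floor on C0 replicates 1 to 3 and on C15 replicate 1, and well above it on the other 3 arrays. On the 5 arrays it was at least 72.4-fold higher (log2 fold change 9.57 ± 1.49, adjusted p = 0.00150), and both of its probe sets were called. With all arrays the value was 5.41 ± 1.88 (adjusted p = 0.40). MS, malate synthase, which joins glyoxylate to a further acetyl unit, read 8.76, 23.6, 181 and 3748 in C0 and 42.1, 6196 and 4354 in C15. The 3 high arrays were the same as for ICL1. MS changed by 7.20 ± 1.07 on the log2 scale on the 5 arrays (adjusted p = 0.00111) and by 3.22 ± 1.64 with all arrays (adjusted p = 0.553). Both genes kept their calls in each of the 5 refits without 1 more array. In C20 and C30, ICL1 ran from 182 to 5333 and MS from 3454 to 6140, while in D15 ICL1 was at most 4.27 and MS at most 19.2.

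Genes of chlorophyll breakdown and senescence rose in part. SGR1 and SGR2 are stay-green genes, whose Arabidopsis counterparts take magnesium out of chlorophyll and so start its breakdown. SGR1 read 147, 310, 106 and 1122 in C0 and 113, 2529 and 2104 in C15. SGR2 read 420, 1000.04, 594 and 3521 in C0 and 308, 3954 and 3230 in C15. Both were high on C0 replicate 4 and C15 replicates 2 and 3 and low on C15 replicate 1. On the 5 arrays SGR1 rose by 3.76 ± 0.44 on the log2 scale (adjusted p = 0.000141) and SGR2 by 2.50 ± 0.50 (adjusted p = 0.00768, lost without C0 replicate 1 or C15 replicate 2), and with all arrays the values were 1.63 ± 0.82 and 0.70 ± 0.74 (adjusted p = 0.542 and 0.828). VPE, a vacuolar processing enzyme that matures vacuolar proteases, ran from 6.02 to 46.0 in C0 and from 27.8 to 64.4 in C15 and rose by 2.11 ± 0.43 on the 5 arrays (adjusted p = 0.00884, lost without C0 replicate 1 or C15 replicate 3). With all arrays VPE was at 1.33 ± 0.47 (adjusted p = 0.405). VPE was below the floor on C0 replicates 1 and 2, so the size of its rise is uncertain. These were the 3 called of 7 tested senescence genes, all 7 with positive values and a median of 2.11. The list was chosen with results of these data known, so its direction is a description.

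Of 13 tested tocopherol and carotenoid genes 3 were called higher on the 5 arrays and none lower, while 7 had a positive value and 6 a negative one, with a median of 0.41. With all arrays 6 were positive and 7 negative, with a median of -0.03. HPT1, the homogentisate phytyltransferase that commits the plant to tocopherol (vitamin E), read 627, 477, 526 and 2917 in C0 and 271, 3371 and 3176 in C15. The C0 arrays other than replicate 4 lay close together, and C15 replicate 1 was below all of them. The log2 fold change was 2.60 ± 0.47 on the 5 arrays (adjusted p = 0.00418) and 0.79 ± 0.73 with all (adjusted p = 0.794), and 3 of 3 probe sets were called. gTMT2, a gamma-tocopherol methyltransferase later in the same pathway, read 2334, 3059, 2324 and 6159 in C0 and 2523, 5352 and 5378 in C15. C0 replicate 4 was the highest of the 7 arrays and C15 replicate 1 lay within C0 replicates 1 to 3. The value was 0.39 ± 0.33 with all arrays (adjusted p = 0.764) and 1.07 ± 0.26 on the 5 (adjusted p = 0.0248, lost without C0 replicate 1, C15 replicate 2 or C15 replicate 3). BCH3, a beta-carotene hydroxylase of xanthophyll synthesis, read 108, 72.1, 55.9 and 191 in C0 and 24.9, 1361 and 256 in C15. C15 replicate 2 stood far above the other 6 arrays, and its call (2.94 ± 0.81, adjusted p = 0.0438) was lost in 4 of the 5 refits. With all arrays BCH3 was at 1.11 ± 0.93 (adjusted p = 0.767).

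Ferritins are in none of the lists and are named for the size or p of their change. SFERH-2, a ferritin, the iron-storing protein of plastids, read 45.0, 187, 110 and 4911 in C0 and 253, 4399 and 4855 in C15. C0 replicate 4 was the highest of the 7 arrays. On the 5 arrays it rose 46.8-fold (log2 fold change 5.55 ± 0.67, adjusted p = 0.000191), with 4 of 4 probe sets called, and with all arrays the value was 2.75 ± 1.16 (adjusted p = 0.460). SFERH-4, also a ferritin, read 51.5, 41.9, 83.6 and 278 in C0 and 176, 417 and 364 in C15 and reached 2.76 ± 0.41 on the 5 arrays (adjusted p = 0.00100) and 1.81 ± 0.50 with all (adjusted p = 0.351).

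**Figure D4:**
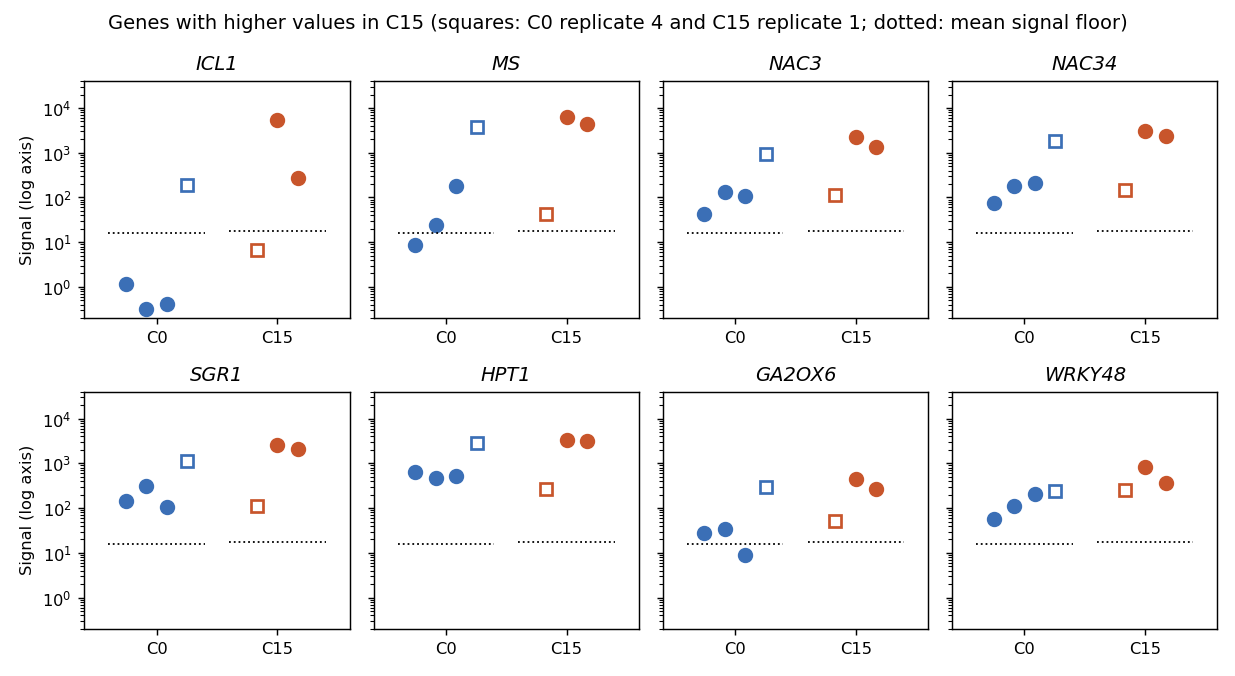
Signal on every C0 and C15 array (log axis) for 8 genes with higher values in C15, 1 point per array; open squares are C0 replicate 4 and C15 replicate 1, and the dotted lines are the mean floors of each group. ICL1, MS, NAC3, NAC34, SGR1, HPT1 and GA2OX6 are high on C0 replicate 4 and on C15 replicates 2 and 3, and WRKY48 is the panel in which the full groups do not overlap.

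Among the 4 families of transcription factors listed, NAC genes had the largest rises on the 5 arrays. NAC proteins are plant-specific, and several are known as regulators of leaf senescence in Arabidopsis. NAC3 read 43.7, 132, 110 and 934 in C0 and 116, 2216 and 1357 in C15, and NAC34 read 76.5, 185, 213 and 1870 in C0 and 150, 3091 and 2308 in C15. C15 replicate 1 lay within the range of C0 replicates 1 to 3 for both genes. On the 5 arrays they rose by 4.32 ± 0.63 (adjusted p = 0.000977) and 4.20 ± 0.47 (adjusted p = 9.61e-05) on the log2 scale, against 2.17 ± 0.91 and 1.90 ± 0.89 with all arrays (adjusted p = 0.452 and 0.513). NAC26, at 91.4, 458, 368 and 2200 in C0 and 72.5, 1355 and 2052 in C15, rose by 2.74 ± 0.52 (adjusted p = 0.00563, lost without C15 replicate 3). With all arrays it was at 0.45 ± 0.90, and that value turned negative when C0 replicate 1, C15 replicate 2 or C15 replicate 3 was left out. NAC6, at 778, 913, 1192 and 289 in C0 and 412, 243 and 196 in C15, fell by 2.11 ± 0.32 on the 5 arrays (adjusted p = 0.00123), against a value of -1.38 ± 0.39 with all (adjusted p = 0.358). Of 20 tested NAC genes 4 were called higher and 2 lower (30.0%), and 17 had a positive value, with a median of 0.70.

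Of 48 tested WRKY genes 7 were called higher and none lower on the 5 arrays (14.6%, beside 11.0% over genes with an informative name), with 37 positive values and a median of 0.71. Beside WRKY48 and WRKY52 they included WRKY53, at 27.4, 103, 109 and 441 in C0 and 112, 729 and 482 in C15 (3.11 ± 0.56 on the 5 arrays, adjusted p = 0.00392, lost without C15 replicate 2, and 1.64 ± 0.69 with all, adjusted p = 0.453). WRKY41 read 163, 129, 159 and 382 in C0 and 143, 492 and 460 in C15 (1.66 ± 0.28 on the 5 arrays, adjusted p = 0.00256, and 0.75 ± 0.39 with all, adjusted p = 0.565). It was the WRKY gene named here that kept its call in each of the 5 refits, but it lost it with the 2 groups fitted alone. Of 56 tested MYB genes 1 was called higher and 4 lower (8.93%), a share near that over genes with an informative name. MYB142, not above the floor on C15 replicates 2 and 3, was at least 5.73-fold lower on the 5 arrays (adjusted p = 0.0267), MYB127 fell by 3.20 ± 0.67 (adjusted p = 0.0104) and MYB64 had a log2 fold change of -2.43 ± 0.59 (adjusted p = 0.0222), while MYB55 rose by 1.14 ± 0.24 (adjusted p = 0.0107). With all arrays these genes were at -2.35 ± 1.07, -1.77 ± 0.74, -1.65 ± 0.54 and 0.40 ± 0.33, in the order of MYB142, MYB127, MYB64 and MYB55 (adjusted p = 0.498, 0.449, 0.391 and 0.761). All 4 of these MYB calls were lost in at least 1 refit without a further array. BZIP98 was the 1 gene called of 58 tested bZIP factors (1.90 ± 0.41 on the 5 arrays, adjusted p = 0.0125, lost without C0 replicate 1 or C15 replicate 3, and 0.82 ± 0.51 with all, adjusted p = 0.651).

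**Figure D5:**
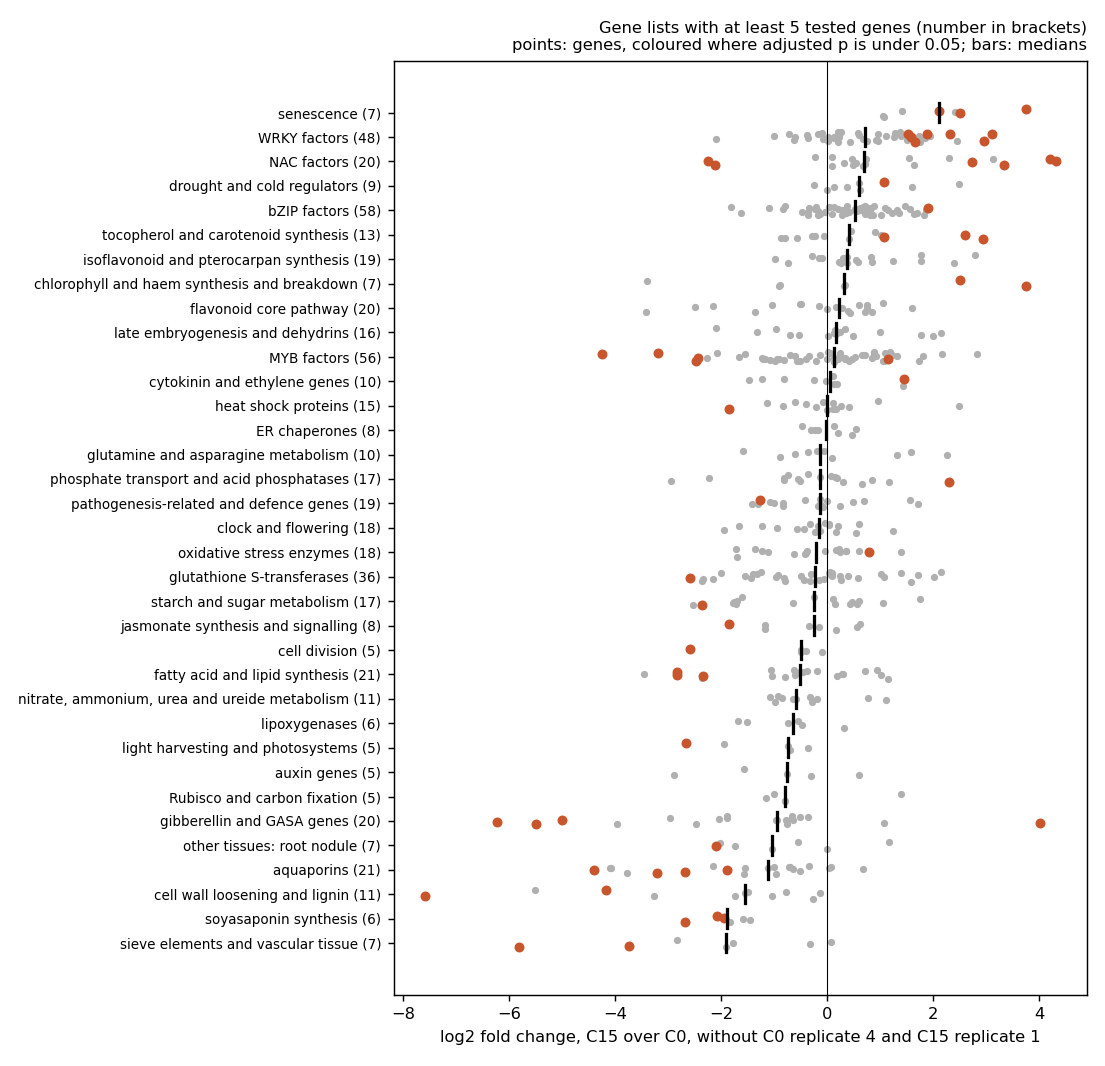
Log2 fold change of C15 over C0 without C0 replicate 4 and C15 replicate 1 for each gene (points) of the lists with at least 5 tested genes, whose number is in brackets; coloured points have an adjusted p under 0.05 over all probe sets and black bars are list medians. Senescence genes have a median of 2.11 and 3 calls, the sieve element and cell wall lists have medians of -1.90 and -1.55, and with all arrays no gene of any list was called.

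In specialised metabolism, soyasaponin genes fell in part and flavonoid genes gave no calls. Soyasaponins are triterpene glycosides of legumes. CYP93E1, which hydroxylates the triterpene beta-amyrin, read 5068, 4747, 3030 and 1256 in C0 and 5674, 378 and 1101 in C15. C15 replicate 1 was its highest array. The fall on the 5 arrays was -2.69 ± 0.76 (adjusted p = 0.0488), and CYP72A67 (-2.08 ± 0.55, adjusted p = 0.0347) and SGT3 (LOC100793463), a glycosyltransferase (-1.95 ± 0.55, adjusted p = 0.0485), were called too. With all arrays the values were -1.21 ± 0.80 for CYP93E1, -1.13 ± 0.55 for CYP72A67 and -0.79 ± 0.60 for SGT3 (LOC100793463), with adjusted p = 0.674, 0.527 and 0.730. The 3 calls were among 6 tested genes, all 6 with negative values and a median of -1.90. Each of them was lost in 3 or 4 of the 5 refits without 1 more array. None of 20 tested flavonoid genes and none of 19 isoflavonoid genes was called. CYP93A2, of the latter list, ran from 4.43 to 209 in C0 and from 123 to 562 in C15 (2.80 ± 1.07 on the 5 arrays, adjusted p = 0.137, and 2.09 ± 0.89 with all, adjusted p = 0.464).

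Of 21 tested genes for fatty acids and lipids 3 were called lower on the 5 arrays and none higher. They were FAD2-2 and FAD2-3, oleate desaturases that make linoleate, and FAD8.2, a plastid desaturase that makes linolenate. Another desaturase of the list, FAD3B, picked after its values were seen, was not called (-2.37 ± 0.86, adjusted p = 0.117). FAD2-2 read 7080, 5460, 4926 and 2811 in C0 and 4568, 1137 and 1140 in C15. Only the 2 arrays set aside stood between the groups, and the difference of -2.34 ± 0.33 on the 5 arrays (adjusted p = 0.000705) kept its call in all 5 refits. With all arrays it was -1.41 ± 0.42 (adjusted p = 0.360). FAD2-3 read 3361, 2897, 2544 and 257 in C0 and 2446, 459 and 364 in C15 (-2.83 ± 0.69 on the 5 arrays, adjusted p = 0.0243, and -1.10 ± 0.84 with all, adjusted p = 0.735). FAD8.2 read 2970, 1969, 275 and 431 in C0 and 615, 153 and 174 in C15 (-2.84 ± 0.69 on the 5 arrays, adjusted p = 0.0239, and -1.84 ± 0.65 with all, adjusted p = 0.403). Both of these calls were lost without C0 replicate 1, C0 replicate 2, C15 replicate 2 or C15 replicate 3. GSTU28, a glutathione S-transferase, an enzyme class that conjugates toxic compounds, read 2122, 2015, 2056 and 423 in C0 and 2895, 283 and 417 in C15. C0 replicates 1 to 3 were nearly level, and C15 replicate 1 was above them. GSTU28 fell by 2.58 ± 0.33 on the 5 arrays (adjusted p = 0.000288), was at -0.99 ± 0.61 with all (adjusted p = 0.651) and was the 1 called of 36 tested transferases.

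The other lists held 0 or 1 call each, all on the 5 arrays. SS of the starch and sugar list fell by 2.36 ± 0.48 (adjusted p = 0.00897, 1 of 17), HSP23.9, a small heat shock protein, by 1.85 ± 0.40 (adjusted p = 0.0122, 1 of 15) and HIR3, named for the hypersensitive response, by 1.27 ± 0.33 (adjusted p = 0.0343, 1 of 19 defence genes). PHT1-8, a phosphate transporter, was not above the floor on C0 replicates 1 to 3 and was at least 2.49-fold higher (adjusted p = 0.0446, 1 of 17). EIN4, an ethylene receptor, rose by 1.45 ± 0.36 (adjusted p = 0.0277, 1 of 10 cytokinin and ethylene genes) and DREB3, a factor of the drought and cold responses, by 1.07 ± 0.27 (adjusted p = 0.0306, 1 of 9). With all arrays SS was at -0.95 ± 0.63, HSP23.9 at -1.18 ± 0.40, HIR3 at -0.87 ± 0.31, PHT1-8 at 1.05 ± 0.70, EIN4 at 0.70 ± 0.41 and DREB3 at 0.58 ± 0.29, with adjusted p-values from 0.394 to 0.680. Each of these 6 calls was lost in at least 2 of the 5 refits. None of 18 genes for the clock and flowering was called. FT1A, a gene of the florigen family, ran from 42.5 to 178 in C0 and from 7.36 to 51.5 in C15 (-2.52 ± 0.80 with all arrays, adjusted p = 0.386, and -1.94 ± 0.98 on the 5, adjusted p = 0.261). No call was made among 16 late embryogenesis genes, 8 chaperones of the endoplasmic reticulum, 4 ribosomal protein genes or 3 genes for autophagy and ubiquitin. p40 of the ribosomal list was among the smallest p of the rises with all arrays, from 570 to 1207 in C0 and from 898 to 3397 in C15 (1.16 ± 0.36, adjusted p = 0.374, and 0.54 ± 0.35 on the 5 arrays, adjusted p = 0.40). AFB3B of the auxin list was at 0.49 ± 0.25 with all arrays (adjusted p = 0.549) and 0.60 ± 0.30 on the 5 (adjusted p = 0.263). Of root nodule genes 1 of 7 tested was called, N-36A, at -2.11 ± 0.56 on the 5 arrays (adjusted p = 0.0367) and -0.91 ± 0.61 with all (adjusted p = 0.684). Its call was lost in each of the 5 refits. The summed nodule list ran from 450 to 2057 in C0 and from 249 to 445 in C15, and its part in the other results was not tested.

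Further large changes belong to genes of no list. CUPIN16.1, of the cupin family that includes seed storage proteins, read 5054, 2756, 2713 and 15.1 in C0 and 3433, 26.5 and 18.0 in C15. Its fall on the 5 arrays was -7.20 ± 0.86 (adjusted p = 0.000190), against -2.86 ± 1.69 with all (adjusted p = 0.630). AG1 read 1650, 1144, 378 and 62.3 in C0 and 894, 6.54 and 20.6 in C15 (-6.13 ± 0.68, adjusted p = 9.14e-05), and DD2/63 read 6139, 4462, 1099 and 56.4 in C0 and 3959, 68.2 and 56.4 in C15 (-5.62 ± 0.96, adjusted p = 0.00286). With all arrays AG1 was at -3.13 ± 1.17 and DD2/63 at -2.19 ± 1.43 (adjusted p = 0.415 and 0.672). In all 3 genes C15 replicate 1 lay within or near the range of C0 replicates 1 to 3. On C15 replicates 2 and 3 the floors were 15.3 and 14.6. CUPIN16.1 and AG1 were near or below them there, so the sizes of their falls are uncertain. H-1 read 34.3, 26.0, 72.0 and 1189 in C0 and 147, 1490 and 519 in C15 and rose by 4.42 ± 0.70 on the 5 arrays (adjusted p = 0.00167), with 2.35 ± 0.99 over all (adjusted p = 0.452). Of the 78 genes named here 65 were called on the 5 arrays, and 24 of these kept the call in each of the 5 refits that left out 1 more array, VSPA, VSPB, EXP4, ICL1, MS, NAC3, NAC34, SGR1, HPT1 and SFERH-2 among them.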

How the data were processed

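The values deposited by the authors are linear intensities of 61170 probe sets, 1 for every array. Each array has a 2% trimmed mean of 125, so a common scaling had been applied. Which software summarised the probes is not stated in the labels or the files. The 37593 soybean probe sets were filtered on the floor of 23350 oomycete and nematode probe sets, and 227 control and other probe sets were left out. Groups follow the sample labels, and all 22 columns match 1 sample each. Nothing in the labels says that samples of a group came from separate plants, so p-values measure the spread between samples, which may be technical.

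Tests used limma 3.58.1 (R 4.3.3). Each group of the 22 arrays had its own coefficient, the values were log2(value + 1), and the fit used eBayes with a variance trend and Benjamini-Hochberg adjustment over the 32776 probe sets. The fit without C0 replicate 4 and C15 replicate 1 drops those arrays. The fit was also run on simulated data with independent errors and correct group labels. That run does not bear on arrays that resemble another group. The added 1 shrinks the log2 fold changes of dim genes, while signals below the floor are unreliable, so their fitted values may err either way. On the 5 arrays ICL1 was fitted at 761-fold, against a lower bound of 72.4-fold. Where a group had no array above the floor, "at least" marks a lower bound on the fold. For it the dim signals were raised to the floor of their array where they lay below it, and mean log2 values were compared.

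Names come from the array's annotation table, in which 8677 soybean probe sets have 1 gene, 370 have several and 28546 have none, with 111 informative names taken from RefSeq synonyms. Coordinates are left out because no build was named for the array. A gene stands for its tested probe set of highest mean. Of 1639 genes with several tested probe sets, 2 had calls in both directions. Named genes are the 8 largest called rises and falls, up to 4 called members of each of 41 lists or else its member of smallest p, up to 6 genes of smallest p in each direction with all arrays, and VSPA and VSPB; 11 of the 89 that this rule gives, each the smallest p of a list without a call in either fit, are counted but not named. The comparison, the arrays set aside and the lists were chosen with earlier results of these data known, and list members were edited on names alone. Other scalings, filters, pseudocounts, weights, a replicate block and leaving out arrays were tried as alternatives.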

Additional observations from a re-analysis of the deposited data

Results flagged for a closer look

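Each C0 group of 4 signals was examined for an array far from the other 3 on the log2 scale, for the 78 named genes. In 8 of them 1 array stood apart, and in all 8 it was C0 replicate 4. Chance marks about 1 in 20 groups of this size, but that rate does not apply here: most of the genes were named from the fit without C0 replicate 4, which was set aside for its profile, and genes on 1 array are not independent. The values are a description. C0 replicate 4 was low for VSPA, at 113 against 6889 to 8459 on the other C0 arrays, for VSPB, at 22.9 against 2408 to 6156, for CUPIN16.1, at 15.1 against 2713 to 5054, and for KTI-2, at 123 against 934 to 1073. It was also low for GSTU28, at 423 against 2015 to 2122, and for FAD2-3, at 257 against 2544 to 3361. It was high for ICL1, at 194 against 0.318 to 1.14, and for HPT1, at 2917 against 477 to 627.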

How the results depend on the processing

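With all 7 arrays, the count of called probe sets was 0 in the main setting and under quantile normalization, median centring, no floor filter, a floor filter over the 7 arrays, the 2 groups fitted alone and leaving out R20 replicate 3; it was 2 with a pseudocount of 16, 3 without a variance trend and 8523 with array weights, whose estimation stopped before it converged. Leaving out 1 array gave 0 to 117 calls, the 117 without C0 replicate 4, and leaving out both odd arrays gave 1769. On the 5 arrays, 1769 became 231 with the 2 groups fitted alone, 2816 without R20 replicate 3, whose actin 3'/5' ratio of 136 stood apart, and 5965 with array weights; leaving out 1 more array gave 514 to 3272, and the other settings gave 1314 to 2085. With the replicate number as a block, 274 were called with all arrays and 1359 on the 5. The deviations of same-numbered arrays from their group means correlated at 0.470, -0.125 and -0.209, and those of differently numbered arrays at -0.585 to 0.529. These means include C0 replicate 4 and C15 replicate 1, so the correlations cannot tell whether the numbers pair the samples. With fewer samples in a fit its power falls by construction; the other causes were not tested. A group left with 1 array was assumed to vary like the others. The refits on the 5 arrays reuse the arrays that gave the calls, so a kept call is no independent support. Of the 65 named genes called on the 5 arrays, 41 lost the call in at least 1 of the 5 refits without a further array, 41 with the 2 groups fitted alone, and 20 lost it in no setting. Leaving out arrays turned signs: with all arrays, AUX22 ranged from -2.88 to 0.22 (positive without C15 replicate 3), BCH3 from -0.25 (without C15 replicate 2) to 2.94 and NAC26 from -0.45 to 2.74 (negative without C0 replicate 1, C15 replicate 2 or C15 replicate 3), and on the 5 arrays p40 ranged from -0.051 (without C15 replicate 2) to 1.13. The signal floor, 14.0 to 22.1 on these arrays, limits dim genes such as ICL1, EXP4 and SEOF to bounds.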
